A study of Mus musculus with 9 samples.

Results

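The fibroblast growth factor (FGF) system described here comprised 10 genes, the ligands Fgf18, Fgf1, Fgf2, Fgf5, Fgf7, Fgf10 and Fgf22 and the receptors Fgfr1, Fgfr2 and Fgfr3. They were chosen by name, with earlier results of these data known. The array's platform annotation assigns at least 1 probe set to each of them alone. Other FGF genes on the array are described further below as lists. The chosen genes made up 10 of the 14507 genes measured. A probe set is a small group of probes, usually within 1 exon. The 10 genes were covered by 99 of 146964 such probe sets, from 2 each for Fgf2 and Fgf7 to 26 for Fgfr2. A gene's value was the median of the log2 intensity over its probe sets, and because probe sets differ in brightness, levels of different genes were not compared.

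The tail epidermis of adult mice had been separated by hand into its compartments, namely the sebaceous gland (SG), the hair follicle (HF), and between the follicles the interfollicular epidermis (IFE), with 3 arrays of pooled pieces each. All 9 arrays came from wild-type females of a C57BL6/CBA background, matched for age, and the labels name no mutation or treatment in any group. The series set out to define an expression signature for each of them. Each array held RNA of all cells in the dissected pieces, so fewer cells of a type and less RNA per cell cannot be told apart.

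FGF ligands are secreted proteins that bind receptor tyrosine kinases on the cell surface together with heparan sulfate, and the activated receptor signals through docking proteins to the MAP kinase, phosphatidylinositol 3-kinase and phospholipase C pathways. Fgfr1, Fgfr2 and Fgfr3 are each spliced in alternative forms of the outer part of the protein. The epithelial form of Fgfr2 answers to Fgf7, Fgf10 and Fgf22, of which Fgf7 and Fgf10 are made mainly by mesenchyme. In mouse skin, Fgf18 helps to hold the follicle in its resting phase, Fgf5 ends the growth phase of the hair, and receptors of the keratinocyte maintain the epidermal barrier.

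The arrays were assigned to compartments by their titles, since the array file name in the description named another compartment for 9 of 9 arrays. Marker genes matched the titles. Sebocyte genes (12 measured) had a mean centred log2 value of 1.62 to 2.16 in SG, -0.46 to 0.134 in HF and -1.95 to -1.57 in IFE. Hair shaft and inner root sheath genes (11 measured) lay at 2.64 to 3.26 in HF and -2.48 to -2.45 in IFE. In SG they lay at -1.61 and -1.42 on replicates 1 and 2 and at 1.33 on replicate 3, so SG replicate 3 stood apart from its group. HF replicate 2 had the highest sebocyte value of the HF arrays, 0.134 against -0.46 and -0.367. The correlation of gene values across genes was 0.921 to 0.977 within compartments and 0.846 to 0.93 between them. The median deposited intensity of an array was 176 to 234.

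Fgf18 was higher in SG and in HF than in IFE, Fgfr1 was higher in SG, Fgf5 was higher in HF, and Fgfr2 was lower in both. The moderated F test of limma, which asks whether any compartment differs, gave 6 of the 10 genes an adjusted p under 0.05 (Benjamini-Hochberg), which 24.5% of all genes reached. A gene counted as changed between 2 compartments where the adjusted p was under 0.05 and the log2 difference was at least 1 in size. In SG against IFE, 2 of the 10 were higher, where 2.54% of all genes were, and 1 was lower, where 6.96% were. In HF against IFE, 2 were higher (2.96% of all genes) and 1 was lower (3.36%). These comparisons share the IFE arrays. Between SG and HF, 0 of the 10 passed in limma, against 5.11% of all genes, and 1 of the 10, Fgf2, had an unadjusted p under 0.05.

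Without regard to size or test, every SG array lay above every IFE array in 4 of the 10 genes (13.2% of all genes) and below in 2 (21.7%). For HF against IFE the groups did not overlap in 6 higher (13.5%) and 2 lower genes (19.3%), and for SG against HF in 2 higher (12.1%) and 1 lower (17.2%). The scaling between arrays shifts all such differences. The median difference of all genes in SG against IFE was -0.063 as deposited, 0.158 with quantile normalization and 0.179 with median centring, and the share of higher genes among those called was 26.7%, 56.4% and 53.1%. In HF against IFE these shares were 46.8%, 58.3% and 56.9%, and in SG against HF 35.4%, 50.4% and 50.5%. The directions of Fgf18, Fgf5, Fgf2, Fgfr1, Fgfr2 and Fgfr3 against IFE held under each of these scalings.

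**Figure D1:**
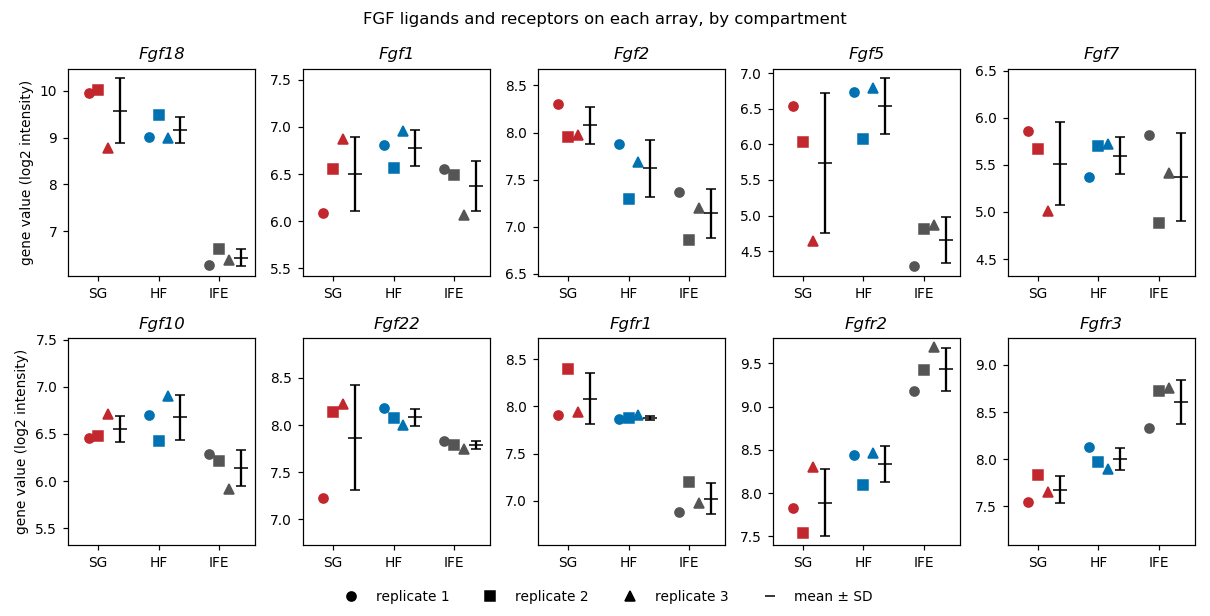
Gene value (log2 intensity) of each FGF gene on each array, with SG, HF and IFE from left to right in each panel. Points are arrays, shaped by replicate number, and the bar beside them is the mean ± SD of 3 arrays. Fgf18 and Fgfr1 lie higher on all SG and HF arrays than on any IFE array, and Fgfr2 and Fgfr3 lie lower.

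Among the ligands, Fgf18 differed most. Its gene value was 9.94, 10.01 and 8.77 in SG replicates 1, 2 and 3, 9.00, 9.48 and 9.00 in HF, and 6.27, 6.63 and 6.39 in IFE. Every SG and HF array stood above every IFE array, and SG replicate 3 was the lowest of the appendage arrays. Fgf18 averaged 9.58 ± 0.69 in SG, 9.16 ± 0.27 in HF and 6.43 ± 0.18 in IFE (log2 intensity, SD, n = 3 each). It was 8.83-fold higher in SG than in IFE (log2 difference 3.14 ± 0.30 SE, limma adjusted p = 3.57e-05) and 6.62-fold higher in HF than in IFE (2.73 ± 0.30 SE, adjusted p = 0.000123). SG and HF, the neighbours at the top of the order, did not differ beyond their spread (0.42, 95% interval -0.23 to 1.06, adjusted p = 0.447). Without SG replicate 3 that difference was 0.82 with an adjusted p of 0.0252, still under the minimum size. Markers of the resting hair follicle, a list of 11 measured genes that leaves out Fgf18, moved alongside at 0.322 to 0.463 in SG, 0.375 to 0.513 in HF and -0.954 to -0.762 in IFE. Their summed intensity was 10026 to 13379 in SG, 8839 to 10577 in HF and 3962 to 5448 in IFE, and their part in the result was not tested.

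The Fgf18 start site is shown because this gene carried the largest difference of the family. The window of 300 bases, from 250 before to 50 after the start, comes from RefSeq on build GRCm38.p6, at chr11:33147351-33147650 on the minus strand. Capitals mark a match to the GC box (GGGCGG on either strand).
Fgf18: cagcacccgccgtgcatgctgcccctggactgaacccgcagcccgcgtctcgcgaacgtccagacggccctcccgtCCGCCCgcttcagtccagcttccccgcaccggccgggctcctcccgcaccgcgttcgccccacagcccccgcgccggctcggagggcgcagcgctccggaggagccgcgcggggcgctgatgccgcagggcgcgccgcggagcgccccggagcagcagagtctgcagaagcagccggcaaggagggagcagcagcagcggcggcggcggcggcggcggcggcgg
The window held 1 GC box, a motif found in 35.7% of 32851 promoter windows of that length. No TATA box (TATAAA, in 13.6% of windows), no AP-1 match (TGANTCA, 7.81%) and no LEF/TCF match (CTTTGAT, 3.73%) lay in it on either strand. Its GC content was 78.7% with 47 CpG pairs, against medians of 52.7% and 7 over all windows. The coordinates are not those of the build in the submitters' processing notes, mm9.

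The 5 probe sets of Fgf18 did not move together. Probe set 5103571 read 10.44, 10.19 and 8.77 in SG, 9.00, 9.48 and 9.00 in HF, and 5.24, 4.86 and 5.03 in IFE, a log2 difference of 4.75 ± 0.38 SE in SG against IFE. Probe sets 4746526, 5322636 and 4525257 differed in the same direction by 4.28, 3.55 and 2.36, so 4 of 5 passed the threshold (2.98% of all probe sets). In HF against IFE, 3 of 5 passed (2.99% of all probe sets), with 4525257 at 1.21 and an adjusted p of 0.105. Probe set 4984832 was bright everywhere and did not follow the others. It read 9.94, 10.01 and 9.66 in SG, 9.57, 9.67 and 9.24 in HF, and 10.17, 9.45 and 9.96 in IFE, a difference of 0.0095 ± 0.25 SE in SG against IFE. This probe set was the brightest of the gene. Taking the brightest probe set as the gene value, in place of the median, ended the Fgf18 calls, with 0.0095 for SG against IFE (adjusted p = 0.98) and -0.37 for HF against IFE (adjusted p = 0.309). The gene value, as the median on each array, was that of 4984832 in SG replicates 1 and 2. It was that of 5103571 in SG replicate 3 and all HF arrays, and of 4525257 in IFE. The 8.83-fold and 6.62-fold differences, and 0.82 in SG against HF without SG replicate 3, thus set different probe sets against each other. The median of the 5 probe set differences was 3.55 in SG and 3.20 in HF against IFE. The mean over probe sets gave 2.99 and 2.36. The exons that the probe sets cover were not given in the sources used here.

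**Figure D2:**
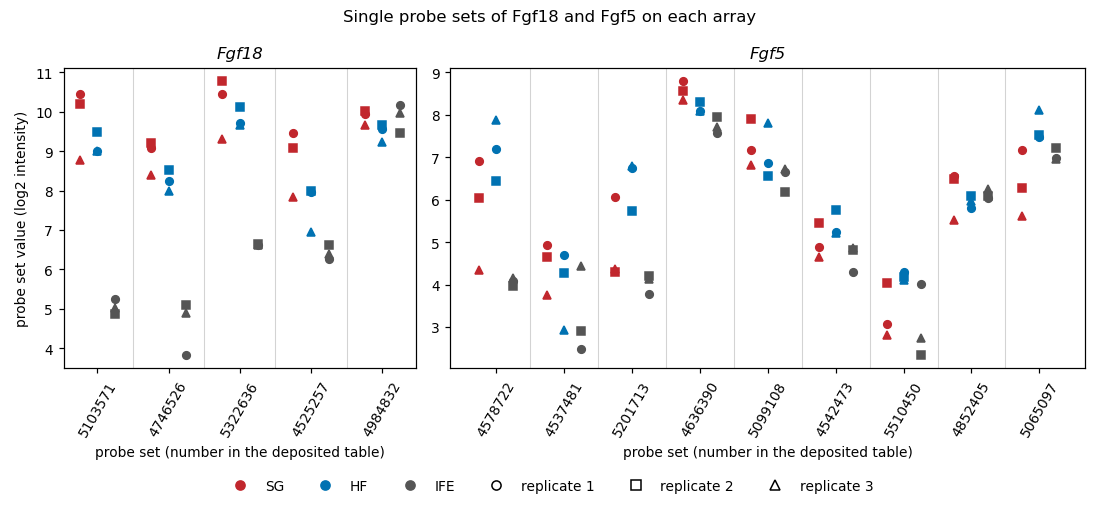
Log2 intensity of each probe set of Fgf18 (left) and Fgf5 (right) on the 9 arrays, with SG, HF and IFE from left to right within each probe set and symbols for the replicate number. Probe sets are ordered by their difference between SG and IFE. In Fgf18 the last probe set, 4984832, reads between 9.24 and 10.17 on all arrays, while the others are lower in IFE.

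Fgf5 was higher in HF than in IFE. It read 6.74, 6.08 and 6.79 in HF replicates 1, 2 and 3 and 4.28, 4.82 and 4.86 in IFE, groups that did not overlap. The log2 difference was 1.88 ± 0.40 SE, or 3.68-fold (adjusted p = 0.00897), and the adjusted p ran from 0.000372 to 0.045 when single arrays were left out. In SG it read 6.55, 6.03 and 4.64. SG replicate 1 lay among the HF values, SG replicate 2 just below the lowest of them, and SG replicate 3 among the IFE values. SG against IFE gave 1.08 ± 0.40 SE (adjusted p = 0.0733), and 1.63 (adjusted p = 0.00157) without SG replicate 3. It also passed with median centring (1.33, adjusted p = 0.0341) and with array weights (1.08, adjusted p = 0.0252). SG and HF did not differ by the test (-0.80, 95% interval -1.67 to 0.07, adjusted p = 0.261). Fgf5 was dim, with a mean level at the 5.47 percentile of all genes, and it was left out when the dimmer 50% of genes were removed. With its brightest probe set as the gene value, HF against IFE gave 0.42 (adjusted p = 0.162). The mean over probe sets gave 1.06 (adjusted p = 0.0113). On each array the median was the value of probe set 5201713 or 4852405 in HF and of 4542473 in IFE. The difference of 1.88 thus set different probe sets against each other and was not the change of any 1 of them.

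The 9 probe sets of Fgf5 were uneven in HF against IFE. Probe set 4578722 read 7.20, 6.44 and 7.88 in HF and 4.08, 3.97 and 4.16 in IFE (3.10 ± 0.56 SE, adjusted p = 0.00768), and in SG it read 6.92, 6.03 and 4.35. In all, 2 of 9 probe sets passed the threshold in HF against IFE (2.99% of all probe sets), and 8 of 9 had a positive difference. The median of the 9 differences was 0.69. Probe set 5065097 read 7.18, 6.27 and 5.61 in SG, against 7.48, 7.52 and 8.12 in HF, and was the only 1 of the 99 probe sets that passed between SG and HF (-1.35 ± 0.36 SE, adjusted p = 0.0494). Among all probe sets, 4.27% were lower in SG than in HF by that rule. The call was lost with the replicate number as a block (0 of 99 called) and with quantile normalization, where 1 probe set was called higher and 0 lower. The Fgf5 start site window is shown beside that of Fgf18 because Fgf5 was the other ligand that passed the test. It lies on GRCm38.p6 at chr5:98253934-98254233, plus strand, with GC and TATA box matches in capitals.
Fgf5: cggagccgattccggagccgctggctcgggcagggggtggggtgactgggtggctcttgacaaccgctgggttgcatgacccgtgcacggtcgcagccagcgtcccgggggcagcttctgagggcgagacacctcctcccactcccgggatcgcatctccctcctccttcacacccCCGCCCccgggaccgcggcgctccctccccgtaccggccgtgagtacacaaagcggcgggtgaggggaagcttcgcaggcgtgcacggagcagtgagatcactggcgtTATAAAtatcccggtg
It held 1 GC box and 1 TATA box, no AP-1 or LEF/TCF match, a GC content of 68.3% and 29 CpG pairs.

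Fgf2, a ligand that binds several receptors and is stored on heparan sulfate, followed the order SG, HF, IFE. It read 8.30, 7.95 and 7.97 in SG, 7.88, 7.29 and 7.69 in HF, and 7.37, 6.86 and 7.20 in IFE. SG did not overlap with either other compartment, whereas HF and IFE overlapped. The difference between SG and IFE was 0.93 ± 0.21 SE (adjusted p = 0.00744), just under the minimum size, and it was 1.16 with quantile normalization, 1.18 with median centring and 1.05 without IFE replicate 1, which passed. HF and IFE, at 0.48 (95% interval 0.03 to 0.93, adjusted p = 0.164), and SG and HF, at 0.45 (0.001 to 0.91, adjusted p = 0.216), did not pass. The Fgf2 value was the mean of 2 probe sets, which placed HF differently. Probe set 4837717 gave 0.07 in SG against HF, with overlap, and 0.82 in HF against IFE, without overlap. Probe set 4348981 gave 0.83 in SG against HF, without overlap, and 0.14 in HF against IFE, with overlap. Neither showed the order SG, HF, IFE with equal steps.

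The remaining ligands did not differ among the compartments in the F test. Fgf10 (adjusted p = 0.0992) read 6.46 to 6.71 in SG, 6.42 to 6.90 in HF and 5.92 to 6.28 in IFE. Its HF and SG arrays lay above all IFE arrays, with differences of 0.54 ± 0.18 SE in HF and 0.41 ± 0.18 SE in SG. On HF arrays the Fgf10 value was that of probe set 5043369 or 4832178, and in SG and IFE that of 4832178. The HF difference thus partly set different probe sets against each other. The median of the Fgf10 probe set differences was 0.18 in HF and 0.41 in SG against IFE. Fgf7 (adjusted p = 0.788), which like Fgf10 is known as a mesenchymal signal to the epithelium, overlapped in all compartments, at 5.02 to 5.86 in SG, 5.37 to 5.72 in HF and 4.89 to 5.81 in IFE. Its mean level was at the 4.38 percentile of all genes, and differences of such dim genes may be compressed. Fgf1 (adjusted p = 0.37), which binds all FGF receptors, read 6.09 to 6.87 in SG, 6.57 to 6.96 in HF and 6.07 to 6.56 in IFE. Fgf22 (adjusted p = 0.596), known from the inner root sheath of the mouse follicle, read 7.23 to 8.23 in SG, 8.00 to 8.18 in HF and 7.75 to 7.83 in IFE. The interval for Fgf7 in SG against IFE, the widest of these 4 ligands, ran from -0.44 to 0.73, whereas the unadjusted intervals of Fgf10 lay above 0 in SG (0.01 to 0.81) and in HF (0.14 to 0.94). With the mean over probe sets, Fgf1 had a limma adjusted p of 0.0247 in HF (0.52) and 0.0473 in SG (0.40) against IFE. Fgf10 had 0.00743 in HF with array weights (0.68) and 0.0317 in SG with median centring (0.65). With the mean over probe sets, Fgf10 had 0.505 in HF (0.21) and 0.183 in SG (0.37). These differences were under the minimum size. With each of these alternatives the F test passed 7 of the 10 genes.

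Fibroblast markers, the source cells known for Fgf7 and Fgf10, were given by 8 measured genes. Their summed intensity was 1101 to 1863 in SG, 1486 to 1591 in HF and 1003 to 1122 in IFE. The list had 1 gene higher in HF than in IFE (2.96% of all genes), the matrix proteoglycan Dcn (1.70). Col1a1, a main collagen of fibroblasts, read 7.85, 7.80 and 7.80 as means of SG, HF and IFE. Of 7 dermal papilla markers, 2 were higher in SG than in IFE (2.54% of all genes), Sox2 (1.04) and Vcan (1.09). In HF 1 was higher (2.96%), Vcan (1.34). Their summed intensity was 1268 to 1479 in SG, 1142 to 1251 in HF and 935 to 1063 in IFE. The part of these cells in the values of the ligands and of Fgfr1 was not tested.

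Among the receptors, Fgfr1 and Fgfr2 differed in opposite directions. Fgfr1 was higher in SG than in IFE, and Fgfr2 was lower in SG and in HF than in IFE. Fgfr1 read 7.91, 8.40 and 7.94 in SG, 7.87, 7.88 and 7.90 in HF, and 6.88, 7.20 and 6.98 in IFE. The SG and HF arrays all lay above the IFE arrays. Fgfr1 averaged 8.08 ± 0.27 in SG, 7.88 ± 0.02 in HF and 7.02 ± 0.16 in IFE (SD, n = 3 each). It was 2.09-fold higher in SG than in IFE (1.06 ± 0.18 SE, adjusted p = 0.00154) and differed by 0.86 ± 0.18 SE in HF against IFE (adjusted p = 0.0082), under the minimum size, which it passed with the mean over probe sets (1.07) or the brightest one (1.25). The SG difference was 0.91 without SG replicate 2 and 0.99 without IFE replicate 1, with adjusted p of 0.00733 and 0.0044, and then fell short of the minimum size too. SG and HF did not differ by the test (0.20, 95% interval -0.19 to 0.59, adjusted p = 0.561).

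Fgfr2 read 7.83, 7.54 and 8.30 in SG, 8.44, 8.09 and 8.47 in HF, and 9.19, 9.42 and 9.68 in IFE. All SG and HF arrays lay below the IFE arrays, and SG and HF overlapped. Fgfr2 averaged 7.89 ± 0.38 in SG, 8.33 ± 0.21 in HF and 9.43 ± 0.25 in IFE (SD, n = 3 each). The log2 difference was -1.54 ± 0.22 SE in SG against IFE, which is 2.91-fold lower in SG (adjusted p = 0.00058), and -1.10 ± 0.22 SE in HF against IFE, 2.14-fold lower in HF (adjusted p = 0.00693). The HF difference slipped under the minimum size with quantile normalization (-0.87), median centring (-0.99), the mean over probe sets (-0.93), the brightest probe set (-0.835) and without HF replicate 2 (-0.98) or IFE replicate 3 (-0.97), at adjusted p of 0.00638 to 0.0375. SG against HF gave -0.45 (95% interval -0.93 to 0.04, adjusted p = 0.261).

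Suprabasal and basal keratinocyte markers had negative median differences from IFE in SG and HF, as Fgfr2 had. Of 9 suprabasal genes measured, 5 were lower (6.96% of all genes) and 1 higher (2.54%) in SG than in IFE. In HF, 4 were lower (3.36%) and 1 higher (2.96%). The list's median difference was -1.48 in SG and -0.829 in HF, and its summed intensity was 19798 to 23138 in SG, 18785 to 23616 in HF and 44055 to 53848 in IFE. Of 6 basal keratinocyte genes, 1 was lower in SG than in IFE (6.96% of all genes) and 2 were lower in HF (3.36%). The medians were -0.881 and -0.962. Their summed intensity was 13871 to 22005 in SG, 14728 to 16708 in HF and 19908 to 21995 in IFE, so SG overlapped with IFE. The part of these cells in the values of Fgfr2 and Fgfr3 was not tested.

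The Fgfr2 start site window is shown as that of the receptor that was lower in both appendages. It lies on GRCm38.p6 at chr7:130266759-130267058, minus strand.
Fgfr2: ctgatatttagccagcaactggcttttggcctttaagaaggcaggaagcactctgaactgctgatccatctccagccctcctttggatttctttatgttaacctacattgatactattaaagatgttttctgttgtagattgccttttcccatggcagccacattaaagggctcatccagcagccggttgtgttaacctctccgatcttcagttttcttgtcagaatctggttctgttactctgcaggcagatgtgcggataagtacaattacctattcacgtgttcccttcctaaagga
It held none of the 4 motifs, and its GC content was 43.7% with 4 CpG pairs. The window of the ligand Fgf7 held none of them either, at 45.7% GC, while the windows of Fgfr3 had 69.7% and 73% GC with 4 and 2 GC boxes.

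Fgfr3 read 7.55, 7.83 and 7.65 in SG, 8.13, 7.97 and 7.90 in HF, and 8.33, 8.73 and 8.75 in IFE. The 3 compartments did not overlap in either direction, with SG lowest and IFE highest. It averaged 7.67 ± 0.14 in SG, 8.00 ± 0.11 in HF and 8.60 ± 0.23 in IFE (SD, n = 3 each). The difference from IFE was -0.93 ± 0.18 SE in SG (adjusted p = 0.00299) and -0.61 ± 0.18 SE in HF (adjusted p = 0.0433), both under the minimum size. The SG difference passed without SG replicate 2 (-1.01) or IFE replicate 1 (-1.07), and both passed with the brightest probe set (-2.05 in SG and -1.38 in HF). The adjusted p of the HF difference reached 0.159 when single arrays were left out. SG against HF gave -0.32 (95% interval -0.71 to 0.06, adjusted p = 0.301). Of the 18 probe sets of Fgfr3, 15 were lower in SG than in HF and 3 higher, with a median of -0.20. The SG and HF arrays did not overlap in only 3 of them.

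**Figure D3:**
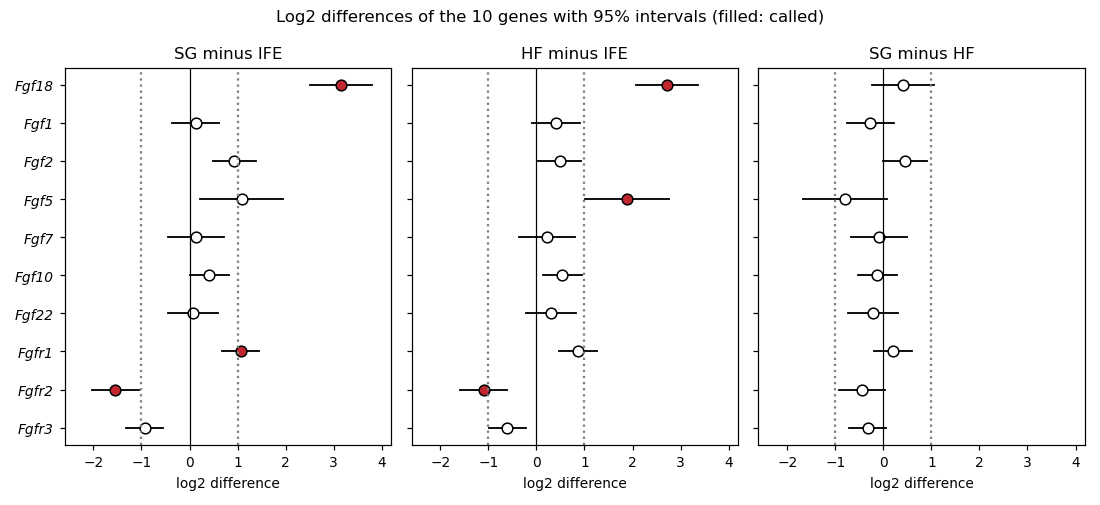
Log2 difference of each FGF gene between compartments (x axis) with its 95% interval from the limma fit of 9 arrays. Filled points had an adjusted p under 0.05 and a difference of at least 1 in size, which the dotted lines mark. Fgf18 has the largest differences, 3.14 and 2.73, and no gene is filled between SG and HF.

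With no minimum size, 5 of the 10 genes passed in SG against IFE and 5 in HF against IFE. Those of SG were Fgf18, Fgf2 and Fgfr1 on the higher side, where 6.07% of all genes passed, and Fgfr2 and Fgfr3 on the lower side, where 15.8% did. Those of HF were Fgf18, Fgf5 and Fgfr1 on the higher side (4.81% of all genes) and Fgfr2 and Fgfr3 on the lower side (7.25%).

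The probe sets of the receptors bore the same directions, although probe sets of 1 gene share a transcript and are not independent. All 21 probe sets of Fgfr1 had a positive difference in SG against IFE, from 0.22 to 1.76 with a median of 1.17, and 12 passed the threshold (2.98% of all probe sets). In 17 of the 21, every SG array lay above every IFE array, which was so for 10.3% of all probe sets. All 21 were again positive in HF against IFE, from 0.16 to 2.76, with 9 that passed (2.99% of all probe sets) and 19 whose arrays did not overlap (11.7% of all probe sets). Of the 26 probe sets of Fgfr2, 24 had a negative difference in SG against IFE, with a median of -1.68, and 21 passed, where 12.5% of all probe sets did. In 22 of the 26 the arrays did not overlap (25.2% of all probe sets). All 26 were negative in HF against IFE, with a median of -0.97. There 6 passed (3.86% of all probe sets) and 24 did not overlap (21% of all probe sets). Of the 18 probe sets of Fgfr3, 16 were negative in SG against IFE. There 9 passed (12.5% of all probe sets) and 13 did not overlap (25.2%). In HF against IFE 15 were negative, 4 passed (3.86% of all probe sets) and 11 did not overlap (21%).

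**Figure D4:**
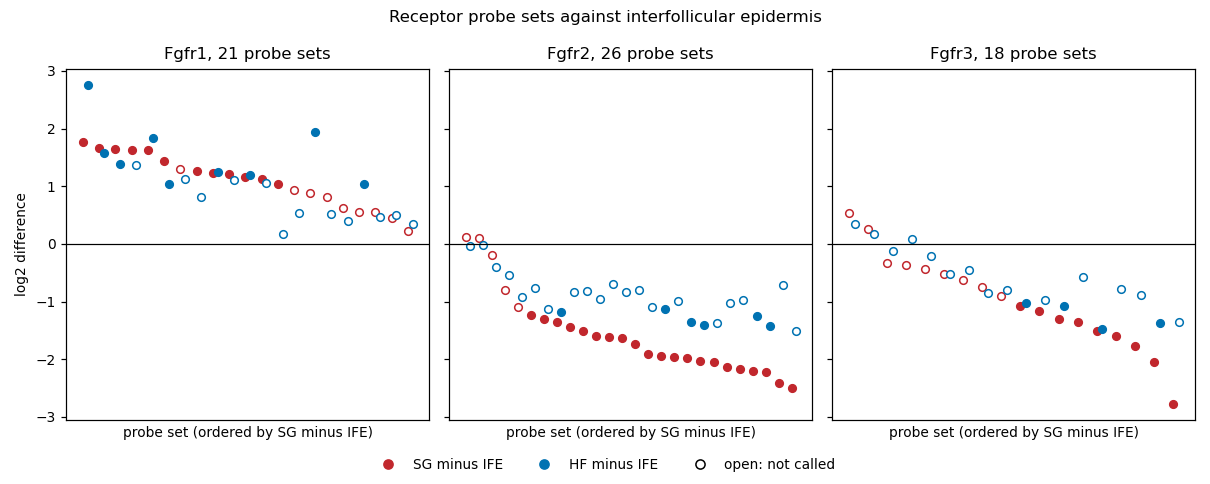
Log2 difference of each probe set of Fgfr1, Fgfr2 and Fgfr3 in SG (red) and HF (blue) against IFE, ordered by the SG difference. Filled points passed the threshold. The Fgfr1 points all lie above 0, and those of Fgfr2 and Fgfr3 lie mostly below it.

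Whether the probe sets of a gene differed by unequal amounts was tested with limma's diffSplice, which assumes 1 spread for all probe sets of a gene and on simulated data made more false calls than its threshold allows. Each probe set minus its gene's median on the same array was therefore tested as well, with a spread of its own, an alternative chosen after seeing the data. Fgf18 passed both tests against IFE, in SG (adjusted p = 1.56e-08 in diffSplice and 0.00579 in the second test) and in HF (3.78e-08 and 0.0101). Fgfr2 passed both in SG against IFE (6.25e-05 and 0.0226). Its 3 probe sets 4523298, 4890160 and 4604991 stood apart from the rest there, at 0.12, 0.10 and -0.20 against the median of -1.68. Probe set 4523298 read 9.44, 9.51 and 9.62 in SG, against 9.65, 9.26 and 9.31 in IFE. The other probe sets of these 3 were dimmer. Probe set 4890160 read 6.18 to 6.44 in SG and 6.17 to 6.31 in IFE, and 4604991 read 6.82 to 7.26 and 7.06 to 7.58. Probe sets near background can give such a call, and the background level was unknown. Fgf5 (0.00192 and 0.036) and Fgfr1 (0.00208 and 0.0175) passed both in HF against IFE. In Fgfr1 the probe set 5261908 led, at 8.87, 8.78 and 8.89 in HF against 5.85, 6.47 and 5.93 in IFE, a difference of 2.76 ± 0.30 SE. The call of Fgfr3 was in diffSplice alone for SG (1.34e-10 and 0.0763) and HF (0.000808 and 0.355), and that of Fgf5 in SG against IFE was in the second test alone (0.0977 and 0.022). Between SG and HF, Fgf5 passed in diffSplice alone (0.0374 and 0.259). In all, diffSplice called 3 of the 10 genes in SG against IFE, 4 in HF against IFE and 1 in SG against HF, where 28.9%, 10.4% and 11.4% of genes with 2 or more probe sets were called. The second test called 3, 3 and 0 of the 10, with 12.4%, 3.4% and 1.08% of such genes called, and 1 of the 10 had an unadjusted p under 0.05 in it between SG and HF.

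The receptors can also be set against each other within each array, which takes out a constant shift of a whole array. The absolute level of such a difference has no meaning because the probe sets differ. Its change between compartments can be read, but it too mixes probe sets, because the probe set at a gene's median varied between arrays. For Fgfr1 it was 5391172 or 5332521 in HF and 5444292 or 4654147 in IFE. The Fgfr1 value minus the Fgfr2 value was 0.08, 0.86 and -0.36 in SG, -0.58, -0.22 and -0.56 in HF, and -2.31, -2.22 and -2.71 in IFE. SG and HF lay above IFE on every array and overlapped with each other. The Fgfr1 value minus the Fgfr3 value was 0.29 to 0.57 in SG, -0.26 to 0.0045 in HF and -1.77 to -1.46 in IFE, with no overlap between any 2 compartments. The Fgfr2 value minus the Fgfr3 value averaged 0.21 ± 0.47 in SG, 0.34 ± 0.22 in HF and 0.83 ± 0.12 in IFE (SD, n = 3 each). These receptor pairs were chosen with the differences known and were not tested.

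**Figure D5:**
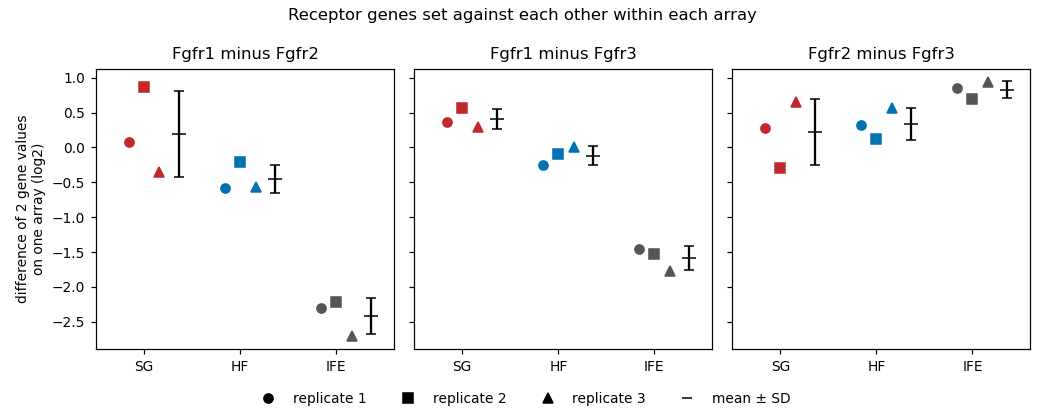
Difference between the values of 2 receptor genes on the same array (log2) in SG, HF and IFE, with points for arrays and mean ± SD of 3 arrays. Fgfr1 minus Fgfr2 and Fgfr1 minus Fgfr3 are lower on all IFE arrays than on any SG or HF array.

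Other members of the FGF pathway were read from lists of genes. Between SG and HF, 5.11% of all genes passed. Of 13 further ligand genes measured, 1 passed in HF against IFE and it was lower, as were 3.36% of all genes. This was Fgf13 (-1.18 ± 0.21 SE, adjusted p = 0.00295), which encodes an intracellular relative of the secreted ligands that acts on sodium channels. In SG against IFE and in SG against HF 0 of the 13 passed in limma, and 0 and 2 of them had an unadjusted p under 0.05. The median log2 difference of the list was 0.056 in SG against IFE, 0.11 in HF against IFE and -0.080 in SG against HF. Over all genes these medians were -0.063, -0.071 and -0.018.

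Of 10 further receptors and binding partners, 2 were lower in SG than in IFE (6.96% of all genes). In HF, 2 were lower (3.36%) and 1 was higher (2.96%). Flrt1, a membrane protein of a family that binds FGF receptors, was lower in both, by -1.97 ± 0.16 SE in SG (adjusted p = 1.39e-05) and -1.48 ± 0.16 SE in HF (adjusted p = 0.000123). It read 5.75, 5.96 and 5.78 in SG, 6.32, 6.36 and 6.27 in HF, and 7.64, 7.98 and 7.76 in IFE. Fgfbp1, a secreted protein that frees FGFs from heparan sulfate, was lower in HF than in IFE (-1.64 ± 0.19 SE, adjusted p = 0.000177) and differed by -0.82 in SG. Of the relatives of Flrt1, Flrt3 was lower in SG than in IFE (-1.34) and than in HF (-1.29), while Flrt2 was higher in HF than in IFE (1.30). The same genes passed with quantile normalization, with median centring and without both SG replicate 3 and HF replicate 2. The list's median was -0.21 in SG against IFE, -0.047 in HF against IFE and -0.048 in SG against HF.

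Heparan sulfate carriers and the enzymes that shape the sugar were represented by 23 genes. Of these, 2 were higher in HF than in IFE, where 2.96% of all genes were. They were the sulfatase Sulf2 (1.87 ± 0.19 SE, adjusted p = 8.48e-05), which removes sulfate groups outside the cell, and the glypican Gpc6 (1.40 ± 0.26 SE, adjusted p = 0.00449). In SG against IFE 1 of the 23 was lower, where 6.96% of all genes were. This was Ndst1 (-1.41 ± 0.20 SE, adjusted p = 0.000575), an enzyme that adds sulfate during synthesis. With quantile normalization or median centring Sulf2 and Gpc6 passed in SG against IFE as well. In SG against HF 0 of the 23 passed in limma, and 9 had an unadjusted p under 0.05. The list's median was -0.29 in SG against IFE, -0.077 in HF against IFE and -0.25 in SG against HF.

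Among 19 cytoplasmic signal carriers, 4 were lower in SG than in IFE, where 6.96% of all genes were. Their list had a median of -0.65 in SG against IFE, -0.26 in HF against IFE and -0.38 in SG against HF. The 4 genes were Frs2, the docking protein of FGF receptors (-1.25 ± 0.16 SE, adjusted p = 0.000248), the adaptor Gab1 (-1.23), the kinase subunit Pik3ca (-1.28) and the kinase Araf (-1.03). This count depended on the scaling, with 0 of 19 called with quantile normalization and 2, Frs2 and Pik3ca, with median centring, where the list's medians were -0.285 and -0.407. Frs2 read 8.21, 8.10 and 8.07 in SG, 8.76, 8.96 and 8.93 in HF, and 9.22, 9.43 and 9.48 in IFE. Its 3 compartments did not overlap. Gab1 was lower in SG than in HF as well (-1.01 ± 0.17 SE, adjusted p = 0.00295), a call that neither other scaling gave. In HF against IFE 0 of the 19 passed in limma, and 6 had an unadjusted p under 0.05. Without both SG replicate 3 and HF replicate 2, the 4 genes still passed in SG against IFE, Pik3r1 was lower in HF than in IFE, and in SG against HF Ptpn11 was called lower and Gab1 was not.

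Feedback inhibitors and transcription targets of FGF signalling were mixed. In SG against IFE, 1 of 16 was higher (2.54% of all genes) and 2 were lower (6.96%). In HF against IFE, 1 was lower (3.36%). The MAP kinase phosphatase Dusp4 was higher in SG (1.82 ± 0.21 SE, adjusted p = 0.000137) and read 8.50, 8.21 and 8.11 in SG, 7.10, 7.75 and 7.23 in HF, and 6.64, 6.24 and 6.49 in IFE. The transcription factor Fosl1 was lower in SG (-1.06) and in HF (-1.09), and Egr1, an early response factor, was lower in SG (-1.64). With quantile normalization or median centring Fosl1 passed in neither, and the feedback inhibitor Spry2 joined Dusp4 as higher in SG than in IFE, as it did without both SG replicate 3 and HF replicate 2. Phlda1, a target of MAP kinase signalling, was lower in SG than in HF (-1.32 ± 0.33 SE, adjusted p = 0.0267). Dusp4 was called higher in SG than in HF with quantile normalization, with median centring and without both SG replicate 3 and HF replicate 2, and with median centring it was higher in HF than in IFE too. Without both arrays, Phlda1 was also lower in SG than in IFE and Egr1 in HF than in IFE. The list's median was -0.046 in SG against IFE, 0.034 in HF against IFE and -0.064 in SG against HF. Medians near 0 changed sign with the scaling, and with quantile normalization those of SG against IFE were 0.17 for this list and 0.011 for the receptors and partners, beside 0.158 for all genes. Immediate early genes, which answer handling and stress within minutes, moved with Egr1 and Fosl1. Of 9 measured, 8 were lower in SG than in IFE (6.96% of all genes) and 5 were lower in HF (3.36%). Their summed intensity was 2083 to 2767 in SG, 3518 to 4770 in HF and 7048 to 13038 in IFE. Their part in the values of the targets was not tested.

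The genes closest to the 6 that passed the F test were sought by the mean absolute difference between centred log2 values over the 9 arrays, as a description. Closest to Fgf18 were Cd200 (0.32), Ptprk (0.391), Crat (0.408), Defb6 (0.429) and Sema3e (0.441). Cd200, a surface protein found on follicle stem cells, was higher in SG by 3.65 and in HF by 3.23 against IFE. Closest to Fgf5 were Lgr5 (0.311), a receptor of follicle stem cells, Mgat4a (0.338) and Anpep (0.364). Closest to Fgf2 were Eva1b (0.0943), Gchfr (0.124) and Sgce (0.144). Fgfr1 was closest to Prss29 (0.114), Tgfb3 (0.135) and Fam3c (0.14). Fgfr2 was closest to the integrin subunit Itga2 (0.0966), Ltb4r1 (0.124) and Slc16a9 (0.127), and Fgfr3 to Hif1an (0.0667), Tnpo2 (0.0672) and Tnrc6b (0.077).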

How the data were processed

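RNA of the pooled dissections was amplified, labelled and hybridised to mouse exon arrays, per the labels' protocols. The authors deposited 1 linear intensity per probe set and array, between 2.5 and 30815. RMA, Affymetrix Power Tools and mm9 stand in the submitters' processing notes, without versions or roles. Background levels and detection calls were not used, which leaves the signal over background unknown, and RMA can compress dim differences. The labels name no batch.

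All values were put on the log2 scale without further normalization. The platform annotation gave 146964 probe sets a single symbol, 1060 several and 6712 none; 1754 outdated symbols were replaced from a RefSeq table. A gene value was the median over its probe sets. One limma model (limma 3.58.1, R 4.3.3) held all 9 arrays and a mean for each compartment, with Benjamini-Hochberg adjustment across 14507 genes or across all probe sets with 1 symbol. P-values measure the spread between pooled dissections that the labels call biological replicates, and 3 arrays per compartment limit the precision. The code was tested on simulated data.

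The members, the pathway and marker lists and the alternatives were chosen with earlier results of these data known. Pathway genes were named by rule: up to 6 per list with the smallest F test p among those called, plus up to 2 called in the opposite direction. Closest genes were the 3 (5 for Fgf18) with the smallest mean absolute difference, without unnamed gene models, olfactory and immunoglobulin genes. Single marker genes, Spry2, Pik3r1, Ptpn11 and single probe sets were named after their values were seen. The main model did not pair arrays by replicate number, because the labels do not say that a number marks a shared animal. After subtraction of group means, same-numbered arrays had correlations of -0.0188 to 0.225, above 0.1 in 2 of 9 pairs. With so few arrays per compartment, these correlations cannot settle whether the arrays were paired.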

Additional observations from a re-analysis of the deposited data

How the results depend on the processing

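Fgf18 kept its direction and its side of the threshold against IFE under all alternatives that used the median or mean of its probe sets. With the replicate number as a block the counts of genes called stayed at 3, 3 and 0, and no gene's call changed, while the count of probe sets called between SG and HF went from 1 to 0. Of the 9 arrays, 5 correlated best with an array of their own number, a hint from the data and not from the design. With median centring 5 of the 10 genes were called in SG against IFE, where 1216 of all 14507 genes were, against 1377 as deposited. With no minimum difference 5 were called in SG and 5 in HF, where 3171 and 1750 of all genes were. Leaving out 1 array at a time gave 3 to 4 genes in SG against IFE, 2 to 3 in HF against IFE, 0 in SG against HF and 5 to 6 in the F test. It gave 35 to 47 probe sets in SG against IFE (46 with all arrays), 10 to 30 in HF against IFE (24), with 10 without HF replicate 3, 11 without HF replicate 1, 13 without IFE replicate 2 and 14 without IFE replicate 3. In SG against HF it gave 0 to 10 (1), with 10 without SG replicate 3, 3 without SG replicate 1 and 0 without HF replicate 1 or 3 or any IFE array. diffSplice then called 3 to 5 genes in SG against IFE, with 5 without SG replicate 3, 1 to 5 in HF against IFE, with 1 without HF replicate 1, and 0 to 1 in SG against HF, with 0 without HF replicate 1 or 3 or IFE replicate 2 or 3. Without both SG replicate 3 and HF replicate 2, 8 probe sets were called in SG against HF. With each probe set minus its gene's median, 0 genes were called there. The counts with arrays left out are of the FGF genes only. They do not tell a change in these genes from a change in calling over all genes.

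Directions that turned were those of differences that had not passed, apart from Fgf18. With the brightest probe set, Fgf18 (-0.368) and Fgf1 (-0.22) turned in HF against IFE, and Fgf1 (0.28), Fgf5 (0.399), Fgf10 (0.0476) and Fgfr1 (-0.0116) in SG against HF. In SG against HF, Fgf7 and Fgf10 turned with quantile normalization (0.0813 and 0.0103) and median centring (0.0512 and 0.0103), and Fgf10 with the mean over probe sets (0.154). Without both arrays named above, Fgf1 (-0.0528) and Fgf22 (-0.103) turned in SG against IFE and Fgf7 (0.216) in SG against HF. Leaving out single arrays gave ranges across 0 for Fgf1 (-0.0528 to 0.338), Fgf7 (-0.101 to 0.392) and Fgf22 (-0.103 to 0.397) in SG against IFE, Fgf7 in HF against IFE (-0.0162 to 0.448), and Fgf7 (-0.259 to 0.165) and Fgf22 (-0.4 to 0.101) in SG against HF. The causes were not tested. Leaving out the dimmer 50% of genes removed Fgf1, Fgf5, Fgf7 and Fgf10.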
